A study of Mus musculus with 15 samples.

Results

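The genes described here are the 3 peroxisome proliferator-activated receptors (Ppara, Ppard and Pparg) and 6 genes of fatty acid use that stand beside them: Cpt1a, Acadm, Pdk4, Angptl4, Plin2 and Creb3l3. They were found by symbol in the counts table of sorted mouse small intestinal epithelium. All 9 were present, with 1 row each, among 24594 rows, and all 9 passed the filter on low counts. The table holds 3 libraries of epithelium from the proximal intestine of E16.5 fetuses and 3 libraries of crypt epithelium from the proximal 20% of the adult small intestine. Both groups are C57Bl/6J mice, and the labels name no treatment. The adult group is labelled wild type, and the labels give no genotype for the fetal in vivo group. The adult sort kept EpCAM-positive crypt cells of middle CD24 level that lacked lineage markers. The fetal sort kept EpCAM-positive cells without CD31 and CD45, with no CD24 gate named. Age and sort gate therefore changed together and cannot be told apart. No label ties a library to its own animal, and each p-value therefore rests on spread between libraries that can be technical. In 9 organoid libraries of the same series the deposited table pairs no row with a gene, and these genes were not analysed there.

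PPARs are nuclear receptors that bind fatty acids and their derivatives. They pair with retinoid X receptors on DNA and switch on genes that take up, store and burn fat. In the intestine the alpha and delta forms are the ones best known from enterocytes and crypts, while the gamma form is best known as the master regulator of fat cells. Burning a long-chain fatty acid begins with its attachment to coenzyme A and its transfer into the mitochondrion by CPT1. Cycles of beta-oxidation follow, and the acetyl-CoA they yield can be turned into ketone bodies. CREB3L3 (CREBH) is a membrane-bound transcription factor of liver and small intestine that is released by cleavage and acts on lipid genes together with PPAR alpha.

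Of the 9 genes 7 were higher in fetal epithelium and 2 were lower. The receptors split: Ppara and Pparg were higher in the fetus, by 1.69-fold and 1.93-fold, while Ppard was 6.84-fold higher in adult crypts. Cpt1a, the entry enzyme of mitochondrial fat burning, was 1.70-fold higher in adult crypts. Pdk4, Creb3l3 and Plin2 were 6.86-fold, 4.90-fold and 3.36-fold higher in the fetus. In each of the 9 genes the fetal and adult libraries did not overlap. Calls were common in this comparison: 54.9% of 13314 tested genes passed the edgeR test, 29.0% as higher and 25.9% as lower in fetal cells, and 62.3% had groups that did not overlap. The count of 9 of 9 is read against that background. The median log2 fold change of the 9 genes was 0.95, and that of all tested genes was 0.01. The cell type markers differed between the groups as well, which differ in age and in sort gate. Of 12 markers of villus enterocytes, which include Fabp1, Fabp2 and Apoa4, 10 were higher and 2 lower in fetal cells. The 12 markers summed to 9314 to 11340 CPM (reads scaled to library size) in fetal against 3599 to 4338 CPM in adult libraries. The largest fetal means in this sum were those of the lipid genes Apob (2426 CPM), Apoa4 (2310), Apoa1 (1575) and Mttp (1307). The 2 lower markers were Sis (log2 fold change −4.06 ± 0.21) and Krt20 (−1.45 ± 0.19). All 8 markers of crypt and dividing cells were lower, at 1644 to 2182 against 10016 to 12430 CPM. Fewer cells of a type and less RNA per cell cannot be told apart in bulk libraries, and the part of enterocyte and crypt cell numbers in the values of the 9 genes was not tested.

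**Figure D1:**
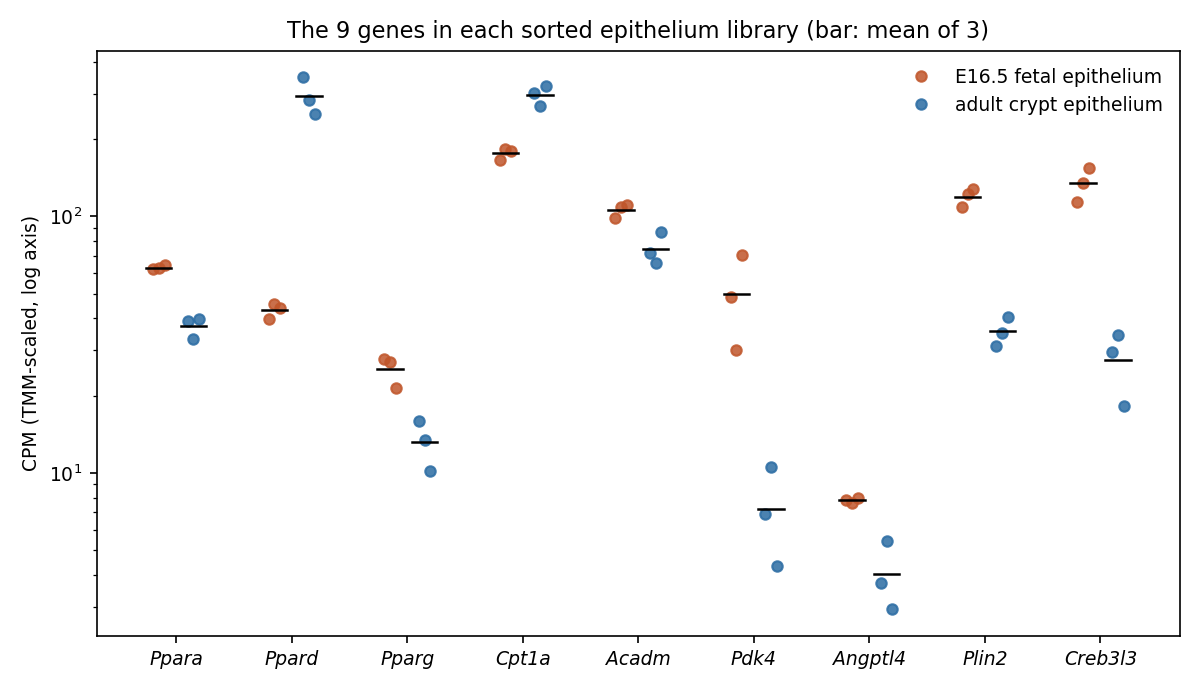
CPM (reads of a gene scaled to library size, log axis) of the 9 genes in each library, with fetal libraries in orange, adult crypt libraries in blue and a bar at the mean of 3. Ppard and Cpt1a are higher in all adult libraries, and the other 7 genes are higher in all fetal libraries.

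DNA elements bound by PPAR and retinoid X receptor pairs are read as direct repeats of a hexamer with 1 base between them, with AGGTCA as both copies. RefSeq promoter windows of 300 bases (250 before and 50 after an annotated start, GRCm38.p6) were used for 8 of the 9 genes, all but Angptl4, with 11 windows in all. Both strands were searched, allowing up to 2 mismatches over the 12 scored bases. A match lay in 2 of these 11 windows, in Plin2 and at 1 of 2 annotated starts of Creb3l3. Of all 32851 windows 3.86% held such a match. Of 136 windows of 109 other pathway genes listed below, 10 held a match with up to 2 mismatches. These 10 include genes that were higher in fetal cells, such as Cd36 and Slc25a20, and genes that were not called, such as Rxra and Echs1. Fabp1 and Apoc2 held matches with 1 mismatch, which 0.554% of all windows held. The windows of Plin2 and Creb3l3 are printed as the matches among the 9 genes, and those of Fabp1 and Apoc2 as the matches with the fewest mismatches. No relation between a match and the direction of a gene was tested. Each is written 5′ to 3′ on the gene's strand with the match in capitals. The Plin2 window is chr4:86670010-86670309 on the minus strand, with the match 225 to 213 bases before the start. The Creb3l3 window is chr10:81092542-81092841 on the minus strand, with the match 209 to 197 bases before the start. This start lies inside the gene, and the window at the gene's 5′ end, chr10:81098823-81099122, held no match to the repeat. The Fabp1 window is chr6:71199629-71199928 on the plus strand and the Apoc2 window is chr7:19677892-19678191 on the minus strand.
Plin2: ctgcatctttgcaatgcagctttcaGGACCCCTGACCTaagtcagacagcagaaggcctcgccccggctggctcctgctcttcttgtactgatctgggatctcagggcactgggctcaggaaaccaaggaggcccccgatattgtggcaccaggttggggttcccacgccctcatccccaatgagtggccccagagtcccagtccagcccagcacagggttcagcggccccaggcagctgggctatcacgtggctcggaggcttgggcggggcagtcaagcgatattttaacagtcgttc
Creb3l3: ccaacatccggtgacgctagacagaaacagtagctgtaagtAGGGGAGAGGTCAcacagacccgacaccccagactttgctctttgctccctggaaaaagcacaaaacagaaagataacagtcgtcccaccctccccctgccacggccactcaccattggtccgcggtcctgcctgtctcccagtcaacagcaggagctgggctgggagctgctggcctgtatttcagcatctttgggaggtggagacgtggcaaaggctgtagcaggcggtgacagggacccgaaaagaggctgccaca
Fabp1: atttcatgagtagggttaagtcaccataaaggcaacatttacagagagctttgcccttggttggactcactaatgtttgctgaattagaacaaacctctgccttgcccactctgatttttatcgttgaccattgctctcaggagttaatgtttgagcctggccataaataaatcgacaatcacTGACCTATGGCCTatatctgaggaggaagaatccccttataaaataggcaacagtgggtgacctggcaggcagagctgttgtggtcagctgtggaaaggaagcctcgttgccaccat
Apoc2: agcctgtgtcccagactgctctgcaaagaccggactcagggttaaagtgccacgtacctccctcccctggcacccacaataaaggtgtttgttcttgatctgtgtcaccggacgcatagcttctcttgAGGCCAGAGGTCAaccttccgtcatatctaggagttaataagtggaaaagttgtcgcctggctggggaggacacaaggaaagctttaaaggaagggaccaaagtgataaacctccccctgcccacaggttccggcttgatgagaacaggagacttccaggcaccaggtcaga
The repeat read along the gene's strand in Creb3l3 and Apoc2, and along the opposite strand in Plin2 and Fabp1. The single hexamer AGGTCA, which is part of the repeat, lay in 6 of the 11 windows, in Acadm, Plin2, Pparg, Creb3l3 and Cpt1a, and in 16.3% of all windows. Ppara, Ppard and Pdk4 had no match to either motif in these windows. A match is a run of letters and not a binding site shown in these cells.

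The receptors are described first. Ppara (Entrez 19013, chromosome 15, 85734983 to 85802819 on the plus strand in mm10), the form that drives the fasting response of the liver, had CPM values of 62.4, 62.7 and 64.4 for fetal replicates 1, 2 and 3. For adult crypt replicates 1, 2 and 3 they were 39.2, 33.3 and 39.8 CPM. The fetal libraries lay close together and all adult libraries lay below them. The log2 fold change of Ppara, fetal minus adult, was 0.76 ± 0.10 (SE, n = 3 and 3, edgeR adjusted p = 3.50e-05). Ppard (Entrez 19015, chromosome 17, 28232700 to 28301474, plus strand), the form linked to intestinal stem cells and fatty acid oxidation, was at 39.9, 45.6 and 44.1 CPM in the fetus. It stood at 349, 285 and 252 CPM in adult crypts, and every adult library was far above every fetal one. Its log2 fold change was −2.77 ± 0.12 (edgeR adjusted p = 1.04e-09). Pparg (Entrez 19016, chromosome 6, 115360951 to 115490399, plus strand), the fat cell form, was at 27.8, 27.1 and 21.5 CPM in the fetus and 15.9, 13.4 and 10.2 CPM in adult crypts. The groups of Pparg did not overlap, and its log2 fold change was 0.95 ± 0.18 (edgeR adjusted p = 5.54e-04).

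The make-up of the receptor family differed between the groups. Reads were divided by the exon length of each gene in GENCODE M21, so that levels of different genes can be set side by side. Per kilobase (kb), Ppara took 53.4% ± 2.33 (SD, n = 3) of the reads of the 3 receptors in fetal cells and 18.4% ± 3.00 in adult crypts. Ppard took 18.7% ± 1.32 in fetal cells and 73.3% ± 2.16 in adult crypts. Pparg took 27.9% ± 3.20 and 8.28% ± 0.861. Every fetal library had Ppara as its leading receptor and every adult library had Ppard. The Ppara to Ppard ratio was 3.06, 2.69 and 2.86 in fetal replicates 1 to 3 and 0.220, 0.228 and 0.309 in adult replicates 1 to 3. The Ppara to Pparg ratio was 1.94 ± 0.321 and 2.27 ± 0.633, and the groups overlapped (exact permutation test, two-sided, p = 0.50, 0.50 adjusted over 7 quantities). For the 3 shares, the Ppara to Ppard ratio and its inverse, and the summed level the exact permutation p was 0.10, or 0.117 adjusted, and 0.10 is the smallest that 3 libraries against 3 allow. The summed receptor level was 30.8 ± 0.848 CPM per kb in fetal cells and 53.5 ± 7.62 CPM per kb in adult crypts. With the longest annotated transcript as the length, Ppard took 27.6% of the fetal and 82.1% of the adult reads, and Ppara 44.0% and 11.5%.

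**Figure D2:**
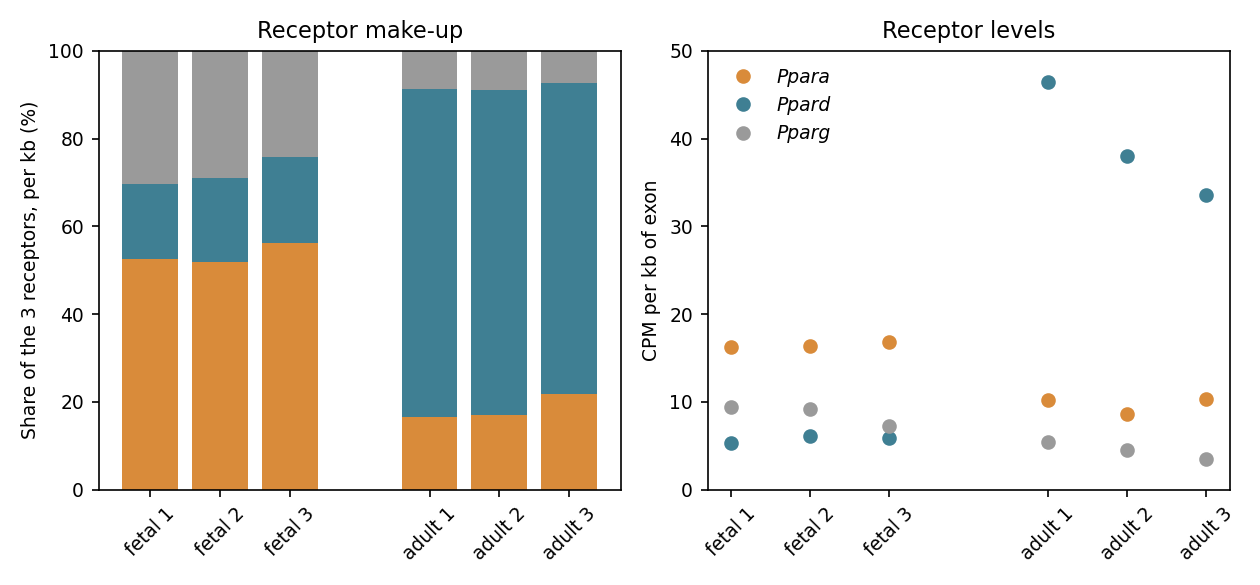
Left, share of each receptor in the summed reads per kb of the 3 PPAR genes (%), by library; right, level of each receptor in CPM per kb of exon (Ppara orange, Ppard blue, Pparg grey). Ppara leads in the 3 fetal libraries and Ppard in the 3 adult libraries.

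Fat burning genes came next. Cpt1a (Entrez 12894, chromosome 19, 3322334 to 3385733, plus strand) encodes the outer-membrane carnitine transferase that sets the pace of fatty acid entry. Its fetal values were 166, 183 and 179 CPM and its adult values 304, 269 and 323 CPM. Adult levels were above fetal levels in every library, and the log2 fold change was −0.76 ± 0.09 (edgeR adjusted p = 1.03e-05). Acadm (Entrez 11364, chromosome 3, 153922357 to 153944632, minus strand), the medium-chain acyl-CoA dehydrogenase, was at 98.4, 109 and 111 CPM in the fetus and 72.3, 65.7 and 87.0 CPM in adult crypts. The gap between the groups was the narrowest of the 9 in log2 terms, at 0.50 ± 0.11 (edgeR adjusted p = 0.00147). Pdk4 (Entrez 27273, chromosome 6, 5483351 to 5496309, minus strand) encodes a kinase that shuts pyruvate dehydrogenase and so spares glucose. It was at 48.4, 30.2 and 70.5 CPM in the fetus and 6.89, 10.5 and 4.32 CPM in adult crypts. Pdk4 was the most variable of the 9 in both groups, with an SD of 40.6% of the fetal mean and 43.0% of the adult mean, yet the groups stayed apart. Its log2 fold change was 2.78 ± 0.32 (edgeR adjusted p = 9.20e-06).

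Angptl4 and Plin2 act on circulating and stored fat, and Creb3l3 encodes a transcription factor that acts on lipid genes. Angptl4 (Entrez 57875, chromosome 17, 33773750 to 33781830, minus strand), a secreted inhibitor of lipoprotein lipase, was at 7.86, 7.61 and 7.97 CPM in the fetus and 3.71, 5.43 and 2.94 CPM in adult crypts. It was the scarcest of the 9 genes, with 209 fetal and 70 adult counts in all. Its log2 fold change was 0.95 ± 0.26 (edgeR adjusted p = 0.00668). Plin2 (Entrez 11520, chromosome 4, 86648386 to 86670060, minus strand), the coat protein of lipid droplets, was at 109, 122 and 128 CPM in the fetus and 31.3, 34.9 and 40.6 CPM in adult crypts. All fetal libraries were well above all adult ones, and the log2 fold change was 1.75 ± 0.11 (edgeR adjusted p = 3.50e-08). Creb3l3 (Entrez 208677, chromosome 10, 81084324 to 81098874, minus strand) was at 114, 135 and 154 CPM in the fetus and 29.7, 34.6 and 18.2 CPM in adult crypts. Its log2 fold change was 2.29 ± 0.18 (edgeR adjusted p = 2.62e-07). Among the 8 genes with a window, Plin2 and Creb3l3 are those with a match to the repeat, printed above.

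The order of levels differed between the groups. Per kb, Creb3l3 led the fetal libraries at 44.6 ± 6.62 CPM per kb, followed by Plin2 at 34.1 ± 2.85, Acadm at 27.1 ± 1.72 and Cpt1a at 23.0 ± 1.17. Ppara at 16.47 ± 0.282 and Pdk4 at 14.2 ± 5.75 did not differ beyond their spread. Pparg at 8.62 ± 1.18 overlapped with Pdk4, and in fetal replicate 2 Pparg (9.16) lay above Pdk4 (8.60). Ppard at 5.75 ± 0.394 and Angptl4 at 2.21 ± 0.0521 CPM per kb closed the fetal order. In adult crypts Ppard at 39.3 ± 6.55 and Cpt1a at 39.1 ± 3.60 CPM per kb led, and they could not be ordered. Acadm followed at 19.2 ± 2.78. Plin2 at 10.1 ± 1.34, Ppara at 9.75 ± 0.943 and Creb3l3 at 9.11 ± 2.80 lay within their spread, and Pparg, Pdk4 and Angptl4 were at 4.46 ± 0.969, 2.06 ± 0.887 and 1.14 ± 0.360, where the libraries of Pdk4 and Angptl4 overlapped. Among tested genes with a known length, Ppard stood at the 46.5th percentile of level in fetal cells and at the 92.1st in adult crypts. Creb3l3 stood at the 94.0th and the 60.02nd, and Pdk4 at the 73.6th and the 25.5th. With the longest transcript as the length, Plin2 stood above Creb3l3 in fetal cells, at 63.3 against 58.7 CPM per kb.

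Beside these genes, 10 lists of pathway genes held 145 other genes. Of these 122 were tested, 51 were higher and 31 lower in fetal cells, and 40 were not called. Their median log2 fold change was 0.12, and that of all tested genes was 0.01. Each list is described by its counts and its median log2 fold change. These counts and those of the pool are read beside all tested genes, of which 29.0% were higher and 25.9% lower. Means of CPM carry the SD over 3 libraries, and log2 fold changes, fetal minus adult, carry their SE.

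**Figure D3:**
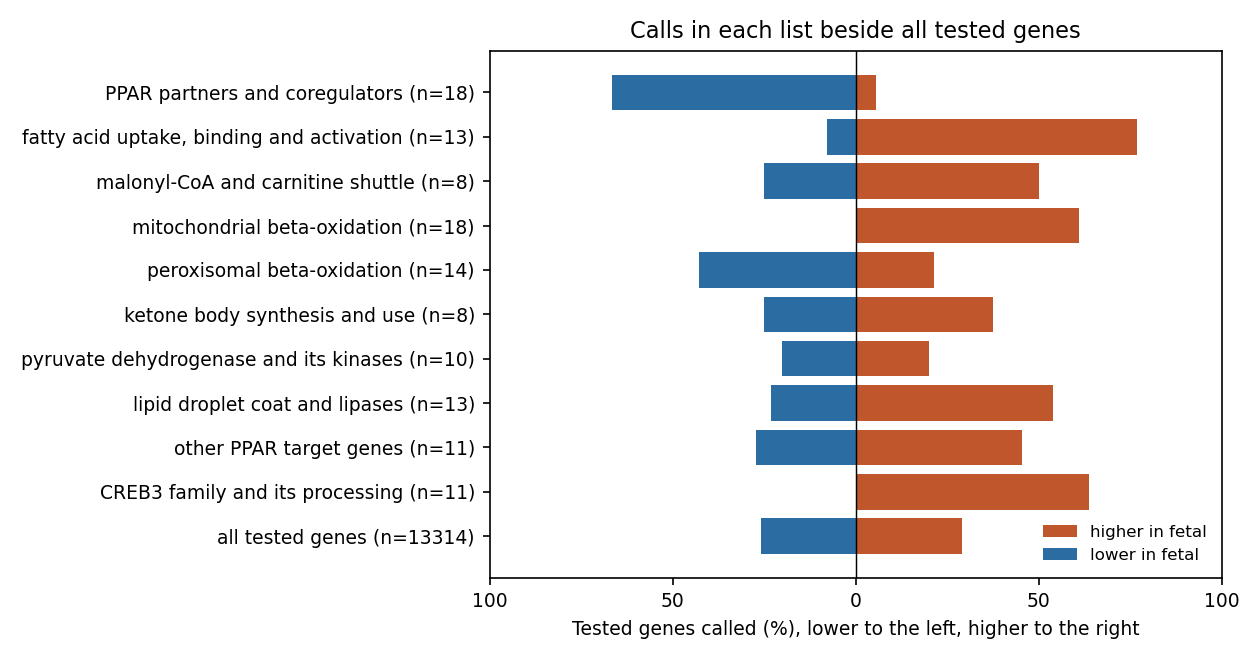
Share of tested genes called lower (blue, to the left) or higher (orange, to the right) in fetal cells, for each pathway list and for all tested genes, with the number tested in parentheses. The list of PPAR partners and coregulators leans to the left. The lists of fatty acid uptake and mitochondrial beta-oxidation lean to the right, as does that of the CREB3 family, its processing and its lipid targets.

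The receptors' partners leaned towards adult crypts. Of 18 tested partners and coregulators 12 were lower in fetal cells and 1 was higher, with a median log2 fold change of −0.40. Rxra, the main retinoid X receptor partner, was at 134 ± 4.17 CPM in fetal cells and 129.8 ± 4.07 CPM in adult crypts and was not called (log2 fold change 0.05 ± 0.08, edgeR adjusted p = 0.624). Ppargc1a, the coactivator of mitochondrial and oxidative genes, was at 25.6 ± 2.12 CPM in fetal cells and 51.1 ± 6.56 CPM in adult crypts (log2 fold change −0.99 ± 0.12, edgeR adjusted p = 1.58e-05). Its relative Pprc1 had a log2 fold change of −0.74 ± 0.09, the coactivator Ncoa3 of −0.80 ± 0.09 and the corepressor Ncor1 of −0.66 ± 0.08. Lpin1, a phosphatidate phosphatase that also acts as a PPAR alpha coactivator, was the 1 gene called higher (log2 fold change 1.10 ± 0.17).

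Fatty acid uptake, binding and activation leaned towards the fetus. Of 13 tested genes 10 were higher and 1 was lower, with a median log2 fold change of 1.13. The acyl-CoA synthetases Acsl3 and Acsl4, which attach coenzyme A to fatty acids, were higher by 1.64 ± 0.08 and 2.22 ± 0.14 on the log2 scale. Fabp1, the fatty acid binding protein shared by liver and gut whose start window is printed above, was at 270.1, 371 and 376 CPM in the fetus and 49.7, 77.9 and 34.6 CPM in adult crypts. Its groups did not overlap, and it was higher by 2.65 ± 0.22 on the log2 scale. Fabp5 was higher by 1.93 ± 0.15 on the log2 scale. The fatty acid translocase Cd36 stood at 10.1 ± 2.33 CPM in fetal cells and 1.56 ± 0.897 CPM in adult crypts (log2 fold change 2.69 ± 0.35). Slc27a2, a fatty acid transporter and very long-chain acyl-CoA synthetase, went the other way, at 2.02 ± 0.408 CPM in fetal cells and 106 ± 10.8 CPM in adult crypts. It had a log2 fold change of −5.68 ± 0.16 and was the 1 lower gene of the list. Without adult replicate 3 the synthetase Acsl6 was a further lower call, which made 2.

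Entry into the mitochondrion was split. Of 8 tested genes of malonyl-CoA and the carnitine shuttle 4 were higher and 2 lower, with a median log2 fold change of 0.03. Cpt2, the inner-membrane transferase that completes what CPT1 starts, was at 204 ± 15.4 CPM in fetal cells and 126 ± 5.02 CPM in adult crypts (log2 fold change 0.70 ± 0.09), opposite in sign to Cpt1a. The carnitine carrier Slc25a20 was also higher, at 48.2 ± 3.09 against 17.0 ± 1.53 CPM. Cpt1b, the muscle form of CPT1, was at 0.392 CPM per kb in fetal and 1.04 CPM per kb in adult cells, far below Cpt1a, and was lower (log2 fold change −1.36 ± 0.38). Mlycd, which removes the CPT1 inhibitor malonyl-CoA, and Acaca, which makes it, were the other higher calls, and Acacb the other lower call. These calls were weak. Without fetal replicate 1, adult replicate 1 or adult replicate 2 the list held 2 higher genes. It held 1 lower gene without fetal replicate 1 or 3, or without adult replicate 2 or 3, and with the replicate block, DESeq2 or library size only.

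Enzymes of the mitochondrial cycle leaned towards the fetus and peroxisomal ones did not. Of 18 tested mitochondrial beta-oxidation genes 11 were higher and 0 lower, with a median log2 fold change of 0.43. At an unadjusted p under 0.05, 1 of them was lower, Acad9, which was called without adult replicate 1, and DESeq2 called 0 lower. Acadl, the long-chain acyl-CoA dehydrogenase, was at 365 ± 27.3 CPM in fetal cells and 116 ± 19.0 CPM in adult crypts (log2 fold change 1.65 ± 0.11). Acaa2, the thiolase of the last step, was at 364 ± 36.4 and 128 ± 5.80 CPM (log2 fold change 1.51 ± 0.09). Acot2 and Acad11 were higher by 2.32 ± 0.16 and 1.06 ± 0.12 on the log2 scale. Of 14 tested peroxisomal genes 3 were higher and 6 lower, with a median of −0.19. Crot, which hands shortened acyl groups to carnitine, was higher (log2 fold change 1.08 ± 0.12). The thiolase Acaa1a had a log2 fold change of −0.69 ± 0.10. The difference between the 2 lists was not tested.

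**Figure D4:**
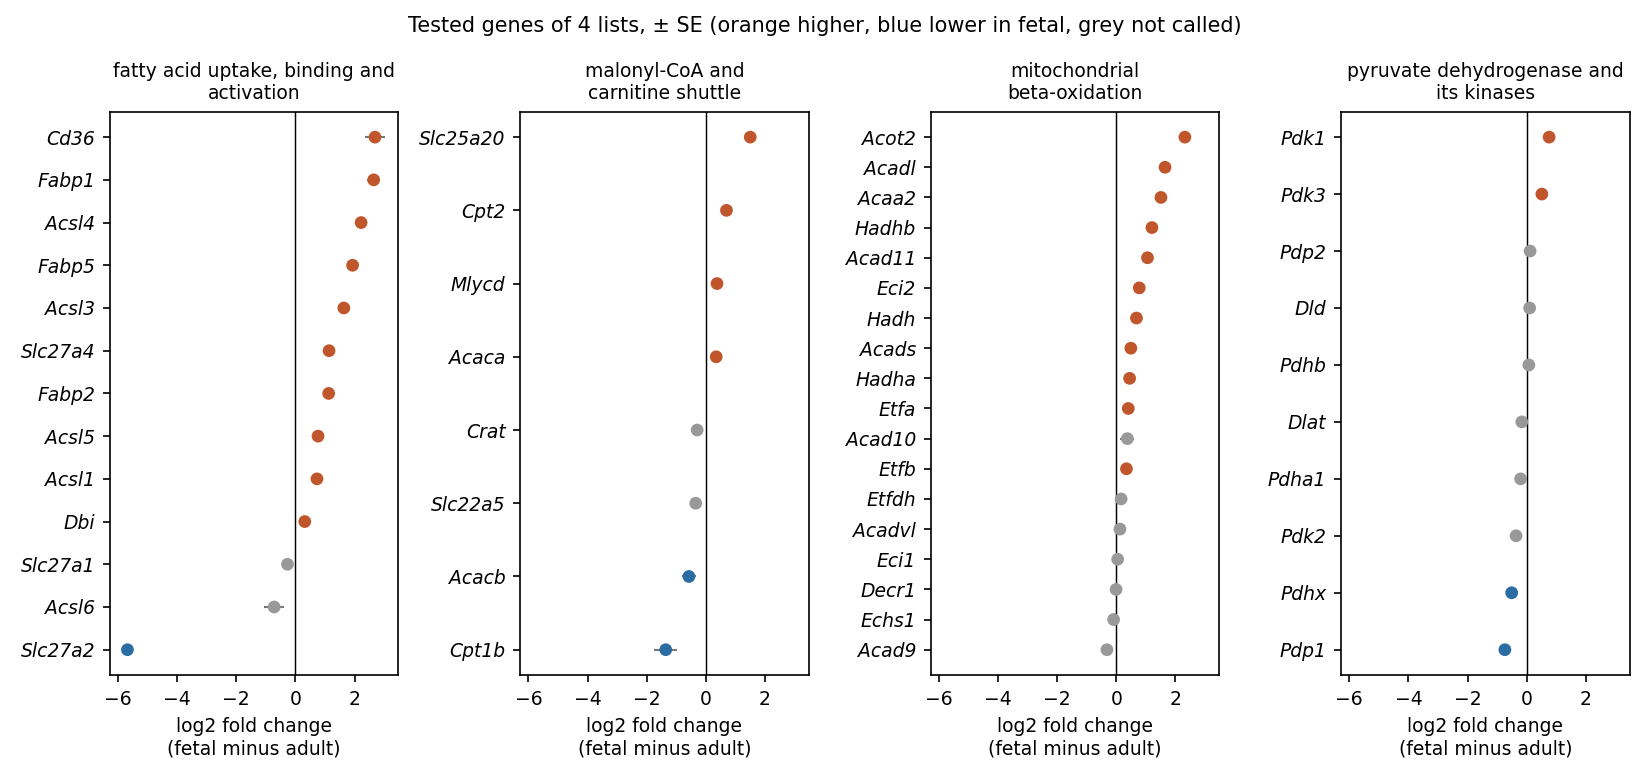
Log2 fold change (fetal minus adult, ± SE) of the tested genes of 4 lists (fatty acid uptake, carnitine shuttle, mitochondrial beta-oxidation, pyruvate dehydrogenase), with genes higher in fetal cells in orange, lower genes in blue and genes not called in grey. The called mitochondrial genes lie to the right of 0, and Slc27a2, in the list of fatty acid uptake, lies farthest to the left.

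Bdh1, which turns acetoacetate into hydroxybutyrate, was higher by 0.36 ± 0.08 on the log2 scale. Oxct1, the enzyme that opens ketone bodies for burning, was lower (log2 fold change −0.88 ± 0.09), and so was the monocarboxylate carrier Slc16a1 (log2 fold change −0.58 ± 0.08). Of 8 tested genes of ketone body synthesis and use 3 were higher and 2 lower, with a median log2 fold change of 0.14, shares near those over all tested genes (29.0% and 25.9%). Without fetal replicate 2 the list held 2 higher genes.

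Around Pdk4, the pyruvate dehydrogenase list showed little lean. Of 10 tested genes 2 were higher and 2 lower, with a median of −0.05. Pdk1, another kinase of the complex, was at 153 ± 11.9 CPM in fetal cells and 90.2 ± 8.92 CPM in adult crypts (log2 fold change 0.76 ± 0.10). The kinase Pdk3 was higher (log2 fold change 0.51 ± 0.16), but was not called without fetal replicate 1 or adult replicate 1 (edgeR adjusted p = 0.0677 and 0.0739, range over settings 0.00942 to 0.0739). The phosphatase Pdp1 and the structural subunit Pdhx were lower. Without adult replicate 2 the list held 4 lower genes.

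Around Plin2, the lipid droplet and lipase list held 7 higher and 3 lower of 13 tested genes, with a median of 0.49. Plin3, a second droplet coat protein, was at 295 ± 17.0 CPM in fetal cells and 109 ± 10.8 CPM in adult crypts (log2 fold change 1.44 ± 0.09). Dgat2, which makes the triglyceride stored in droplets, was higher by 2.95 ± 0.14 on the log2 scale and Cidec, which fuses droplets, by 1.74 ± 0.21. The lipases Pnpla2, which opens stored triglyceride, and Lipe were lower, as was Dgat1. Pnpla2 was at 56.6 ± 6.47 CPM in fetal cells and 118 ± 20.8 CPM in adult crypts (log2 fold change −1.06 ± 0.13). Lpl, the lipase that ANGPTL4 inhibits, was at 5.74, 6.61 and 5.72 CPM in the fetus and had 0 counts in the 3 adult libraries. With 3 counts assumed for the adult group as a floor, it was at least 34.6-fold higher in fetal cells. Mesenchyme markers, which stood at 161 to 228 CPM in sum in the same fetal libraries and at 11.8 to 19.8 CPM in adult ones, moved with Lpl, and their part in this value was not tested.

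Of 11 tested genes of the list of other known PPAR targets 5 were higher and 3 lower, with a median of 0.46. These were 45.5% and 27.3%, beside 29.0% and 25.9% of all tested genes. The acyl-CoA thioesterase Acot1 was at 137, 160.3 and 139 CPM in the fetus and 8.66, 10.01 and 10.4 CPM in adult crypts (log2 fold change 3.91 ± 0.12). It belongs to a family of near-identical genes, among which reads can be split, so that its value is uncertain. Acot4 was higher by 2.47 ± 0.15 on the log2 scale. Acot3 had 233 fetal and 2 adult counts, which gave a fetal to adult ratio of 75.6 (exact 95% counting interval 20.7 to 628). The other higher genes were Cidec, already counted in the lipid droplet list, and the carrier Slc25a34. Ucp2, the uncoupling protein of the gut, was at 291 ± 12.6 CPM in fetal cells and 555 ± 26.6 CPM in adult crypts (log2 fold change −0.93 ± 0.08), and Txnip and Vnn1 were lower too. Fgf21, the fasting hormone of the liver, and 3 further genes of the list had 0 counts in all 6 libraries.

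Around Creb3l3, 7 of 11 tested genes of the CREB3 family, its processing and its lipid targets were higher and 0 lower, with a median of 0.71. At an unadjusted p under 0.05, 0 were lower, and DESeq2 called 0 lower. Apoc3, an apolipoprotein that slows lipoprotein clearance, was at 45.4, 54.7 and 60.6 CPM in the fetus and 6.01, 6.28 and 4.84 CPM in adult crypts (log2 fold change 3.23 ± 0.16). Apoc2, the cofactor of lipoprotein lipase whose window is printed above, was higher by 1.56 ± 0.19 on the log2 scale, and Apoa4 by 1.82 ± 0.16. Creb3l2 and Creb3l4 were among the higher genes, as was the protease Mbtps2, which releases such factors from the membrane. The remaining higher gene was the lipid gene Cidec, which is counted in other lists as well. Creb3, Creb3l1, Mbtps1 and Atf6 were not called.

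Likeness to each receptor was measured as the mean absolute difference of log2 CPM, centred per gene, over the 6 libraries and among 130 tested genes of the lists. Eci2 and Hadh, which act in beta-oxidation, were closest to Ppara, at 0.0354 and 0.0363. Cpt2 and Hadhb were closest to Pparg, at 0.160 and 0.179. The genes closest to Ppard, Vnn1 and Cpt1b, were at 0.704 and 0.768. With 3 libraries against 3, this distance follows the fold change for the most part, and it is given as a description.

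Total counts were 7888998 to 10538004 in fetal and 5795518 to 6045113 in adult libraries. Of 12 intestinal epithelium markers 1 was higher and 10 were lower in fetal cells, and they summed to 5679 to 5813 against 8902 to 9336 CPM. Krt19, Krt8 and Hnf4a had log2 fold changes of −1.36 ± 0.09, −1.11 ± 0.08 and −1.06 ± 0.09. The markers Epcam and Cdx2 were present in every library, at 844 ± 12.9 and 189 ± 14.2 CPM in fetal cells and 1034 ± 51.2 and 229 ± 9.78 CPM in adult crypts. Adult replicate 3 had the lowest enterocyte and the highest crypt sum of its group. It also had the lowest value of 5 of the 9 genes, Creb3l3, Pdk4, Angptl4, Pparg and Ppard. Of these, Ppard was the gene higher in adult crypts. Fetal replicate 3 had the highest enterocyte and the lowest crypt sum of its group and the highest value of 6 of the 9 genes. How often these libraries were lowest or highest over all tested genes was not counted. Of the other cell types, mesenchyme markers were higher in 11 of 11 tested, and Sparc, Col5a1 and the untested Lum had 0 adult counts. Pancreatic exocrine markers were higher in 10 of 10 tested and summed to 1061 to 2208 CPM in fetal libraries, highest in replicate 2, and to 25.6 to 31.2 CPM in adult ones. Erythroid markers summed to 31.6 to 55.6 against 0.509 to 1.38 CPM (3 of 3 tested higher). Markers of adipocytes, the cells best known for Pparg, summed to 25.6 to 27.7 against 21.7 to 26.1 CPM. Nearly all of it was Cidec, which was higher in fetal cells, and Lipe, which was lower. Fabp4 had 10 fetal and 0 adult counts, Plin1 2 and 0, Retn 1 and 1, and Adipoq 0 and 1. Lep and Cfd had 0 counts in all libraries. Hepatocyte markers summed to 2422 to 3002 against 2560 to 3012 CPM, nearly all of it the urea cycle enzyme Cps1, with Ahsg at 0 and Alb at 16 fetal and 12 adult counts, while Ttr and Serpina1b were higher in fetal cells. Immune markers, 2 higher and 2 lower of 4 tested, summed to 22.6 to 24.1 against 25.3 to 29.2 CPM. Endothelial markers summed to 1.87 to 7.98 against 6.01 to 9.50 CPM, with 1 lower of 1 tested, Esam, at 16 fetal and 85 adult counts. The untested Cdh5, Kdr and Tek had 35, 14 and 11 fetal counts against 0, 0 and 1 adult counts. Pecam1 had 32 against 21 counts and Vwf 7 against 23. The part of these other cell types in the results was not tested. All 9 genes stayed called in the same direction without any 1 library, fetal replicate 2 and adult replicate 3 included. The pancreatic and crypt marker sums differed between the groups in every library, so leaving out 1 library does not test their part.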

How the data were processed

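RNA-seq counts of 6 libraries, 3 of fetal and 3 of adult crypt epithelium, were used. The authors deposited raw counts, which are whole numbers per gene. Per the submitters' processing notes the build was mm10 and edgeR was used. For the aligner, counter, annotation, strand setting and filters, the choice was not given in the sources used here. Adult libraries came from the SMARTer stranded Pico kit, per the labels' protocols. The labels do not name the fetal in vivo kit, so a kit difference and age cannot be told apart. Groups and replicate numbers came from the titles.

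All 24594 rows entered 1 fit: edgeR 4.0.16 quasi-likelihood test in R 4.3.3, TMM, filterByExpr by group with a minimum count of 10, no other term, Benjamini-Hochberg adjustment over 13314 tested genes, called under 0.05. Rn45s, a ribosomal RNA precursor with 7.32% to 10.7% of counts, stayed in. CPM was scaled by the TMM library size. The SE is the log2 fold change divided by the square root of F. A group without counts was set to a floor of 3 counts in all for a bound, and 1 to 3 counts gave an exact 95% interval. These cover counting error only. Within each group every pair of libraries differed beyond sampling noise (chi-square divided by its degrees of freedom, lowest 4.83). No other GENCODE M21 gene shared exon bases with the 9 genes. Promoter windows came from RefSeq, GRCm38.p6.

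The genes, the 10 pathway lists, the 10 marker lists and the naming rule were chosen with earlier results of these data known. Some genes that the rule names are not reported here. The rule names the 9 genes, up to 4 called genes of each pathway list with the smallest p, 7 genes with a set role (among them Rxra, Ppargc1a, Cpt2, Fabp1 and Cd36) and the 2 genes most like each receptor. Of the marker list symbols 2 were not matched. Other pathway genes and single markers named were picked after their values were seen. Alternatives were DESeq2 1.42.0, scaling by RLE or by library size alone, no filter, at least 10 counts in every library, the replicate block, no Rn45s, each library left out and another length. Same-numbered libraries did not deviate together (correlations −0.07, −0.04 and −0.10), so the numbers were taken as names only.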

Additional observations from a re-analysis of the deposited data

How the results depend on the processing

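All 9 genes kept their direction and their call under each of the 13 other fits, which gave 117 values. The highest edgeR or DESeq2 adjusted p among them was 0.0249, for Angptl4. The log2 fold change of Pdk4 spanned 2.44 to 3.15 when each library was left out in turn, that of Angptl4 from 0.77 to 1.22 and that of Pparg from 0.79 to 1.10. Genes called in all were 3859 higher and 3445 lower, 3450 to 3938 and 2947 to 3323 over the left-out libraries, 3636 and 3102 with DESeq2, and 3680 and 3206 with the replicate block. With the replicate block 51 pathway genes were higher and 29 lower, beside 51 and 31 without it. The replicate block is a hint only, since the numbers are not shown to pair the samples. Of 42 other genes named by the rule, 536 of 542 values kept direction and call and 6 lost the call, all in Mlycd and Pdk3. Cd36, Cpt1b, Lpl and Acot3 were not tested with at least 10 counts in every library, and the 542 values leave those fits out. Mlycd was not called without fetal replicate 1 or 2 or adult replicate 1 or 2 (edgeR adjusted p = 0.0590, 0.0882, 0.0749 and 0.121). The count of lower genes of malonyl-CoA and the carnitine shuttle was 0 with at least 10 counts in every library. Cpt1b, with 5 counts in fetal replicate 1, was not tested there, and Acacb was tested but not called. The fitted log2 of Acot3 spanned 5.51 to 9.03 when 1 library was left out. Levels per kb depend on the length chosen: with the longest transcript, Ppard was at 11.6 and Pparg at 11.98 CPM per kb in fetal cells. Depth limits the genes with few counts, and 23 of the 145 pathway genes were too low to test.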

Other observations

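Acyl-CoA thioesterases split fatty acyl-CoA into free fatty acid and coenzyme A, and several of them answer to PPAR alpha in liver. Acot1 to Acot6 lie side by side on chromosome 12 (83987861 to 84109783, GRCm38.p6), and this group was picked after its values were seen. Of the 6 genes 5 were tested, and all 5 were higher in fetal cells, beside 29.0% of all tested genes. Acot1 to Acot4 are also counted in the pathway lists above. Acot6 was at 10.4, 9.98 and 13.1 CPM in the fetus and 3.54, 3.56 and 5.88 CPM in adult crypts (log2 fold change 1.37 ± 0.25, edgeR adjusted p = 4.19e-04). Acot2 was at 33.2, 35.3 and 34.6 CPM in the fetus and 6.19, 5.94 and 8.47 CPM in adult crypts. Acot5, with 4 counts in the fetus and 0 in adults, was below the filter. The members resemble each other in sequence, and how the authors' counting treated reads that fit several of them is not given in the sources used here, so the single values are uncertain.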
